A study of Oryza sativa with 6 samples.

Results

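The genes described here are transcription factors that shape leaves and set leaf polarity in rice, followed in the shoot apex of WT plants and of the mutant dsl1, which is dwarf, has slender leaves and carries a lesion in a gene for a histone deacetylase, an enzyme that takes acetyl groups off histones. They are 49 of the 15140 genes that the array represents by a transcript cluster paired with 1 gene, a cluster being a set of probes read as 1 transcript. They were chosen by name, as HOX, YABBY, DL, GRF, GIF, SPL, PCF, TB1, G1, NAL and ROC genes, with KNOX and WOX genes left out. In the rice gene reference 88 genes carry such a name, and the other 39 are not analysed here. Each of the 49 has a single cluster. By subfamily they are 8 HD-Zip I, 5 HD-Zip II, 4 HD-Zip III and 4 HD-Zip IV genes, 6 YABBY and DL genes, 4 GRF, 7 SPL, 6 TCP and 4 ALOG genes, plus 1 gene that matched only by name. That gene, LOC4339409, is listed as SPL7 after a spotted-leaf mutant but also as HSFA4D, a heat shock factor, and it is called HSFA4D and kept apart from the SPL family.

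Samples were 3 WT and 3 dsl1 shoot apices, dissected with the meristem and the youngest leaf primordia when a young leaf had just emerged. The groups differ in genotype alone per the labels, plants of both were grown in soil, and the sources used here give neither the cultivar nor the kind of lesion. A single mutant is compared, so the differences are those of this line. Each sample was hybridised to 1 single-colour whole-transcript array, and levels are the authors' deposited log2 values. Whether replicates are separate plants is not stated, and the spread behind each p-value is that of these 6 samples, possibly a technical one. In whole apices fewer cells of a type and less RNA per cell cannot be told apart.

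A leaf primordium grows from the flank of the meristem and acquires an upper (adaxial) and a lower (abaxial) side before it flattens. HD-Zip III genes are textbook regulators of the adaxial side and of vascular patterning, and their transcripts are held in check by miR166. YABBY genes act in the lateral organs that leave the meristem, and in rice DL builds the leaf midrib and the carpel. GRF factors with their GIF partners promote cell proliferation and are restrained by miR396. CIN-class TCP genes limit proliferation and include targets of miR319, many SPL genes are targets of miR156 and act in phase change and branching, and ALOG genes such as G1 shape spikelet organs and the timing of inflorescence meristems.

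Array medians lay between 5.30 and 5.40. Pairs of arrays of different genotype correlated at 0.9621 to 0.978 over all clusters, WT pairs at 0.9704 to 0.9795 and dsl1 pairs at 0.9796 to 0.9806. Of 7 meristem names 5 were measured, OSH1, OSH15, OSH71, WOX4 and FON1, and no one of them lay in the dimmest of 5 equal groups of clusters. The floral organ genes MADS1 and MADS8 did, but the floral markers MADS3, MADS16 and LAX1 did not. MADS16, at a mean of 5.83 over all arrays, gave a brighter signal than every meristem marker, the brightest being OSH15 at 5.51. Signals of different clusters come from different probes, so this order need not be that of transcript amounts. MADS3, a stamen and carpel gene, was at 4.25 in WT and 5.13 in dsl1 (limma adjusted p = 0.226). The log2 of the summed levels of each marker list ranged as follows. Meristem markers lay at 7.45 to 7.51 in WT and 7.39 to 7.71 in dsl1, and leaf primordium markers, 4 of which are also members, at 8.88 to 9.14 and 8.81 to 8.95. In the leaf primordium list PLA2 was not measured, and the name YAB3 was ambiguous. It is also a synonym of YAB5, and both genes were summed. Greening leaf markers lay at 11.3 to 11.6 in WT and 10.9 to 11.4 in dsl1, and seed markers at 8.30 to 8.47 and 8.14 to 8.37. At an unadjusted p under 0.05 in limma, 2 of the 5 meristem markers were higher in dsl1. They were OSH15 by 0.35 and OSH71 by 0.57 (limma adjusted p = 0.41 and 0.392). OSH1 at 0.15, WOX4 at -0.28 and FON1 at -0.080 had no such p, so the list went both ways. By that rule 1 of the 5 floral markers was higher, MADS3, and 2 of the 3 seed markers were lower. GluB5 differed by -0.42 and GLUA1 by -0.40 (limma adjusted p = 0.342 and 0.362). The seed marker GLB went the other way, by 0.32, with overlapping groups (limma adjusted p = 0.526). No leaf primordium or greening leaf marker had such a p. Over all genes the same rule took 9.46% as higher and 5.52% as lower. The 5 inflorescence and floral markers lay at 6.55 to 6.78 in WT and 7.03 to 7.07 in dsl1, with no overlap, though members went both ways: MADS3 differed by 0.88 and MADS16 by 0.38, MADS1 by -0.22 and LAX1 by -0.11. The part of these markers in the results that follow was not tested.

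No member passed in dsl1 against WT at a limma adjusted p under 0.05, where 0.0255% of all 54922 clusters and 0.0396% of the 15140 genes were called. G1L2, of the ALOG family, came closest, at an adjusted p of 0.129. When only the 15829 clusters with 1 gene entered the fit, in which 0.474% were called, G1L2 passed as higher (adjusted p = 0.0277) and was the 1 member to do so. At an unadjusted p under 0.05, 8 members were higher and 2 lower. The higher ones were G1L2, HOX6, HOX24, HOX7, ROC4, SPL6, SPL9 and HSFA4D, and the lower ones PCF8 and GRF12. These are 16.3% and 4.08% of the members, while the same rule took 9.46% of all genes as higher and 5.52% as lower (6.06% and 5.7% of all clusters). Without dsl1 replicate 2 the higher count was 4 (G1L2, HOX6, HOX24 and SPL9) and the lower count 2, and without HSFA4D the higher count was 7.

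The 3 dsl1 values lay wholly above the 3 WT values in 9 members (18.4%, against 15.0% of genes) and wholly below in 3 (6.12%, against 9.33%), shares near the background. The median difference, dsl1 minus WT, over the 49 members was 0.044 on the log2 scale, beside 0.019 over all genes and -0.029 over all clusters. Without WT replicate 2 the members' median was 0.126. In all, 29 members had a higher mean in dsl1 (59.2%, against 53.0% of genes) and 20 a lower one. The 95% interval of the difference lay within 1 log2 unit of 0, a doubling or halving, in 41 of 49 members (83.7%, against 88.0% of genes), and within 0.5 in 21 (42.9%, against 31.6%). No member lay in the dimmest of the 5 groups of clusters, 7 lay in the next and 12, 18 and 12 in the brighter 3.

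**Figure D1:**
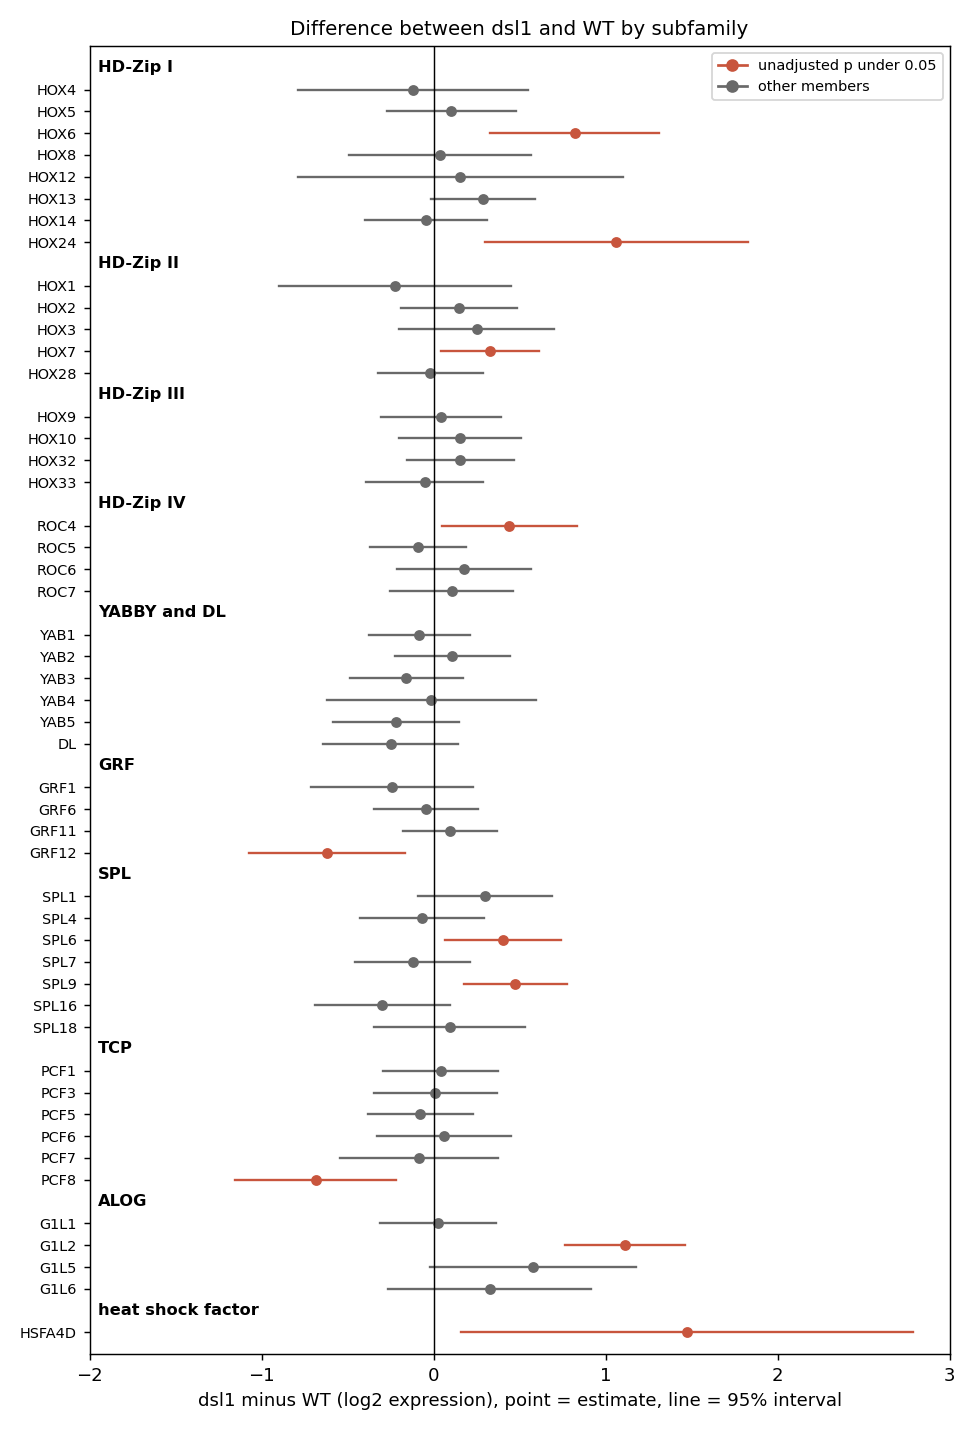
The x axis gives the fitted difference dsl1 minus WT in log2 expression for each of the 49 members, grouped by subfamily, with points for estimates and lines for 95% intervals (3 arrays a group, limma, not adjusted). The 10 coloured members had an unadjusted p under 0.05, 8 to the right of 0 and 2 to the left, and the intervals of all HD-Zip III, YABBY and DL genes cross 0.

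**Figure D2:**
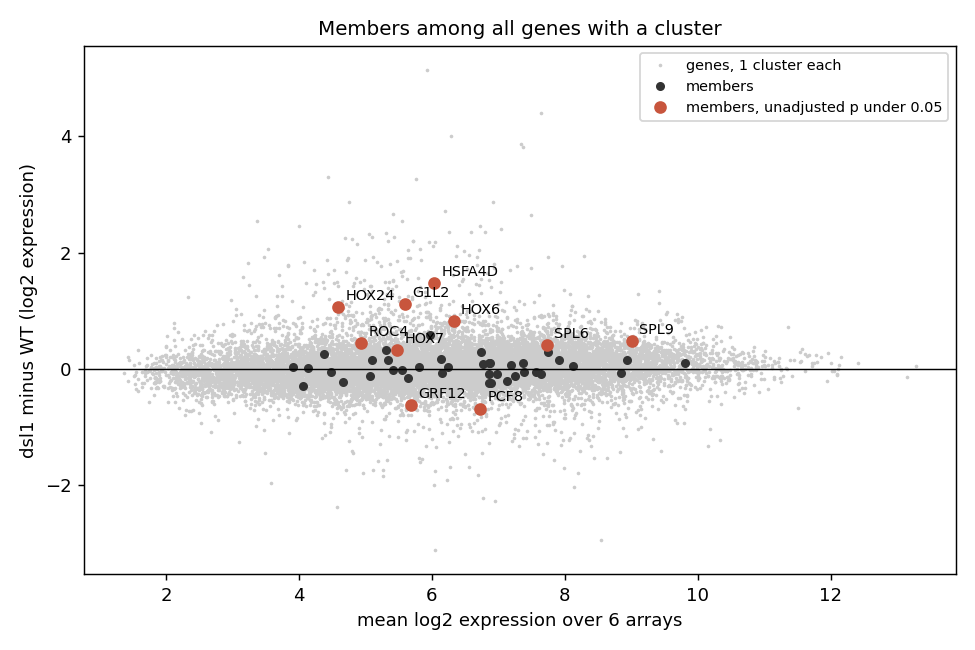
Each grey point is 1 of 15140 genes, placed by its mean log2 expression over 6 arrays (x axis) and its difference dsl1 minus WT in log2 expression (y axis). The 49 members are dark or, at an unadjusted p under 0.05, coloured and named, and many genes that are no members differ by more than HSFA4D at 1.47.

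The ALOG family, DNA-binding factors named after Arabidopsis LSH1 and rice G1, had the highest median of the families, 0.45 over 4 genes, all of them with a higher mean in dsl1. The median was 0.327 to 0.547 with 1 array left out. G1L2 (LOC4341811), known in rice for a role in panicle branching, was at 5.20, 4.96 and 4.95 in WT replicates 1 to 3 and at 5.97, 6.27 and 6.21 in the dsl1 arrays. The lowest dsl1 array thus lay well above the highest WT array. The group means were 5.04 ± 0.144 and 6.15 ± 0.160 (SD, n = 3 each), a difference of 1.11 (SE 0.147) or 2.16-fold, with a limma adjusted p of 0.129. With 1 array left out the difference was 1.05 to 1.20, and over 16 alternatives the adjusted p ran from 0.0277 to 0.406.

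G1L5 (LOC9266624), known as TAW1, which delays the turn of branch meristems to spikelets, was at 5.97, 5.42 and 5.68 in WT and at 5.95, 6.08 and 6.76 in dsl1. The groups overlapped, since WT replicate 1 stood above dsl1 replicate 1. Its difference was 0.58 (SE 0.252, adjusted p = 0.438). Without dsl1 replicate 3, its brightest array, the difference was the lowest with 1 array left out, 0.327. G1L6 (LOC4331099), listed as TH1, which shapes the lemma and palea, differed by 0.33 (adjusted p = 0.641), or 0.116 without WT replicate 1 and 0.577 without WT replicate 2, and G1L1 (LOC4328416) by 0.026 (adjusted p = 0.96). The 95% interval of G1L1, from -0.31 to 0.37, does not reach the 0.77 at which that of G1L2 begins, but the difference between the 2 genes was not tested.

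Among HD-Zip I genes, homeodomain-leucine zipper factors often tied to water stress, 6 of 8 had a higher mean in dsl1 and the median was 0.13. That median was 0.0392 without WT replicate 3, 0.0754 without WT replicate 1, 0.0729 without dsl1 replicate 2 and 0.247 without WT replicate 2. HOX6 (LOC4347647), a gene responsive to drought, was at 5.85, 6.33 and 5.58 in WT and at 6.78, 6.84 and 6.60 in dsl1. All dsl1 arrays exceeded all WT arrays, though WT replicate 2 came close. The means were 5.92 ± 0.378 and 6.74 ± 0.128 (SD, n = 3 each), a 1.77-fold difference of 0.82 in log2 (SE 0.207, limma adjusted p = 0.284).

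HOX24 (LOC4330155), also drought-responsive, was at 3.37, 4.59 and 4.20 in WT and at 4.88, 5.45 and 5.02 in dsl1. The groups did not overlap, but WT replicate 1 was far below the other WT arrays. The means were 4.05 ± 0.624 and 5.12 ± 0.300 (SD, n = 3 each), a 2.09-fold difference of 1.06 (SE 0.323, adjusted p = 0.333). Without WT replicate 1 it was the lowest with 1 array left out, 0.721. HOX13 (LOC4331890) was 0.29 higher, with groups that did not overlap (adjusted p = 0.447).

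The other 5 HD-Zip I genes had smaller differences. HOX12 (LOC4331956), a regulator of panicle exsertion, differed by 0.15 with the widest interval of the family after a WT range of 4.79 to 6.03, and HOX5 (LOC4345576) by 0.10. HOX4 (LOC4347333), which lowers stature when overexpressed, differed by -0.12, HOX14 (LOC4343726), a panicle gene, by -0.046 and HOX8 (LOC4348492) by 0.037. Adjusted p of these 5 lay between 0.832 and 0.962.

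HD-Zip II genes, many of which act in auxin and shade responses, had a median of 0.15 over 5 genes, 3 higher and 2 lower, which was 0.0627 without dsl1 replicate 1 and 0.0977 without dsl1 replicate 2. HOX7 (LOC4329705) was at 5.30, 5.35 and 5.28 in WT and at 5.64, 5.74 and 5.55 in dsl1. The WT arrays were very close together and all dsl1 arrays lay above them. The difference was 0.33 (SE 0.121, 1.26-fold, limma adjusted p = 0.385), and its unadjusted p stayed under 0.05 in 2 of the 6 fits with 1 array left out. HOX3 (LOC4326566) differed by 0.25, HOX2 (LOC4340070) by 0.15 and HOX1 (LOC4349388) by -0.22, with adjusted p of 0.64, 0.719 and 0.791. HOX28 (LOC4340069), which with HOX1 sets tiller angle in rice, differed by -0.019 (adjusted p = 0.967). HOX2 and HOX28 are direct neighbours in the reference annotation.

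The 4 HD-Zip III genes, the adaxial regulators, showed small differences, with a median of 0.098 that was 0.00664 without WT replicate 2, 0.0318 without dsl1 replicate 2 and 0.154 without dsl1 replicate 3. HOX32 (LOC4333544), whose overexpression narrows and rolls rice leaves, was at 7.84, 7.91 and 7.74 in WT and at 7.90, 8.14 and 7.91 in dsl1. The groups touched, with WT replicate 2 above the lowest dsl1 array. Its means were 7.83 ± 0.0813 and 7.98 ± 0.133 (SD, n = 3 each), a difference of 0.15 with a 95% interval of -0.16 to 0.47 (limma adjusted p = 0.678).

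HOX10 (LOC4331345), listed also as OsHB1, had means of 8.86 ± 0.185 and 9.01 ± 0.128 (SD, n = 3 each), a difference of 0.15 (adjusted p = 0.72). HOX9 (LOC4348919), listed as OsHB2, went from 8.10 ± 0.159 in WT to 8.14 ± 0.153 in dsl1, and HOX33 (LOC4352777) from 7.59 ± 0.141 to 7.54 ± 0.144, with differences of 0.044 and -0.053 (adjusted p = 0.931 and 0.911). Over the 4 genes the 95% intervals ran from -0.39 to 0.51. A change of 1 log2 unit in either direction thus lies outside all 4 intervals, while a change of 0.2 upward lies within all of them.

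HD-Zip IV genes, which act in the epidermis, had a median of 0.14 over 4 genes, which was 0.088 without dsl1 replicate 2 and 0.239 without dsl1 replicate 3. ROC4 (LOC4336705), which promotes leaf wax, was at 4.92, 4.60 and 4.64 in WT and at 5.11, 5.39 and 4.97 in dsl1. The groups were apart by a narrow margin, between WT replicate 1 and dsl1 replicate 3. The difference was 0.44 (SE 0.165, 1.36-fold, limma adjusted p = 0.39). ROC5 (LOC4330297), which restrains bulliform cells and so controls leaf rolling, was lower in all dsl1 arrays but by only 0.092 (adjusted p = 0.793). ROC6 (LOC4347635) and ROC7 (LOC4344614) differed by 0.18 and 0.11, with overlapping groups.

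**Figure D3:**
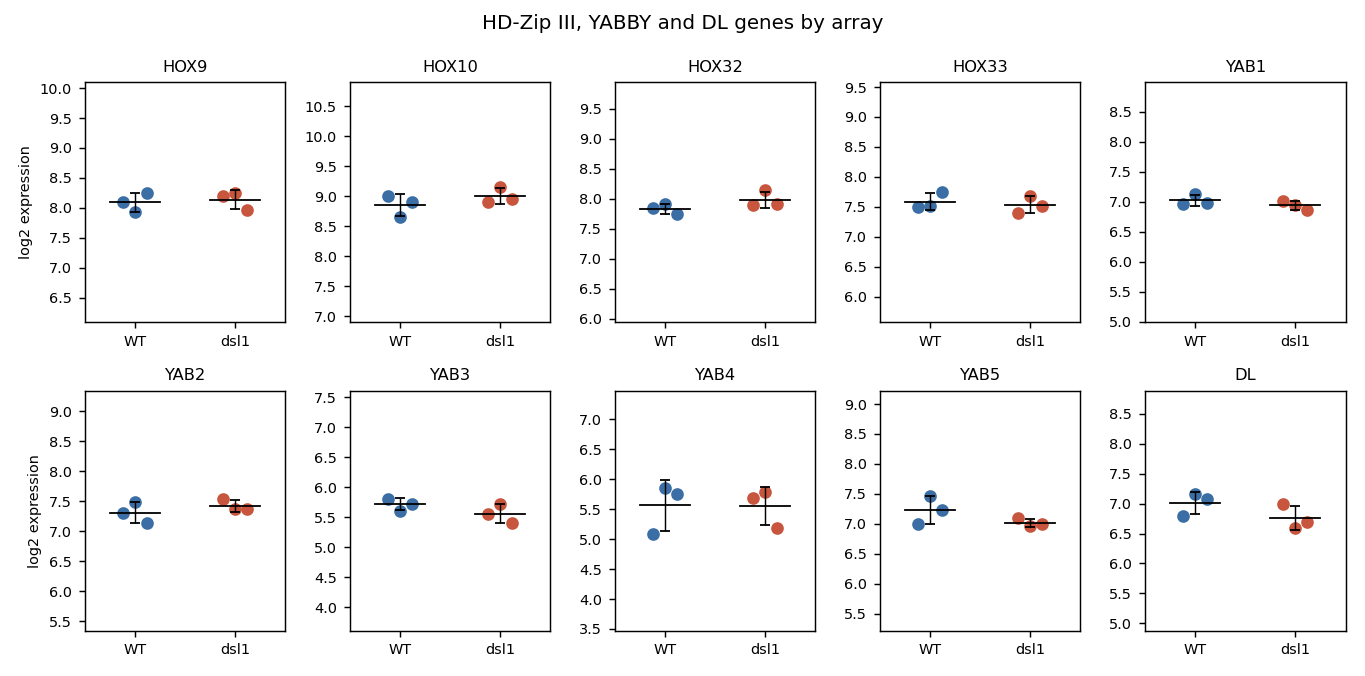
Each panel gives the log2 expression (y axis, 4 log2 units tall in every panel) of an HD-Zip III, YABBY or DL gene on 3 WT and 3 dsl1 arrays, with the mean and SD in black. WT and dsl1 points overlap in all 10 panels, and YAB4 has the widest spread.

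Of the 6 YABBY and DL genes 5 had a lower mean in dsl1, with a median of -0.12 that was -0.183 without WT replicate 1, -0.0646 without WT replicate 2 and -0.0606 without dsl1 replicate 3. In no gene of the 6 were the groups apart. DL (LOC4332058), the midrib gene, was at 6.80, 7.15 and 7.07 in WT and at 6.99, 6.60 and 6.69 in dsl1. WT replicate 1 lay below dsl1 replicate 1. The means were 7.01 ± 0.187 and 6.76 ± 0.206 (SD, n = 3 each), a difference of -0.25 with a 95% interval of -0.64 to 0.14 (limma adjusted p = 0.592).

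YAB5 (LOC4336518), known as TOB1 in spikelet meristems, had means of 7.23 ± 0.233 and 7.02 ± 0.0704 (SD, n = 3 each; adjusted p = 0.618). YAB3 (LOC4349074) went from 5.72 ± 0.103 to 5.56 ± 0.158 and YAB1 (LOC4342449), a gene of gibberellin feedback, from 7.02 ± 0.0883 to 6.94 ± 0.0782. YAB4 (LOC4330130) was at 5.56 ± 0.421 and 5.55 ± 0.317, and YAB2 (LOC4333584), the 1 gene with a higher mean, at 7.31 ± 0.168 and 7.42 ± 0.0967. Differences of these 5 genes ran from -0.22 to 0.11 with adjusted p of 0.618 to 0.988. The 95% intervals of all 6 lay between -0.64 and 0.59.

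GRF genes, growth-promoting factors of dividing leaf tissue, had a median of -0.14 over 4, with 3 means lower. It was -0.0282 without dsl1 replicate 1, -0.0863 without WT replicate 3, -0.219 without WT replicate 1 and -0.236 without dsl1 replicate 2. GRF12 (LOC4336731) was at 5.89, 5.94 and 6.14 in WT and at 5.44, 5.01 and 5.66 in dsl1. All dsl1 arrays lay below all WT arrays, and dsl1 replicate 2 was the lowest. The means were 5.99 ± 0.135 and 5.37 ± 0.328 (SD, n = 3 each), a difference of -0.62 (SE 0.191, 1.54-fold, limma adjusted p = 0.337). With 1 array left out it was -0.765 to -0.443, and its unadjusted p stayed under 0.05 in all 6 of these fits. GRF1 (LOC4330903), linked to leaf growth and heading, differed by -0.24 and GRF6 (LOC4333990), which acts in floral organ and panicle growth, by -0.046. GRF11 (LOC4343178) was higher in every dsl1 array, but its mean differed by only 0.096 (adjusted p = 0.78). Its dsl1 replicate 1 and WT replicate 2 practically coincided, both at 6.88.

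The 7 SPL genes, SBP-box factors, had a median of 0.093, and this value depended on single arrays: it was -0.0519 without WT replicate 3 and 0.228 without WT replicate 2. SPL9 (LOC4338766), which in rice acts in copper balance and antiviral defence, was at 8.77, 8.85 and 8.68 in WT and at 9.17, 9.19 and 9.37 in dsl1. The groups were clearly apart with little spread in each. The means were 8.77 ± 0.0872 and 9.24 ± 0.108 (SD, n = 3 each), a difference of 0.48 (SE 0.128, 1.39-fold, limma adjusted p = 0.302). With 1 array left out the difference was 0.414 to 0.518, and its unadjusted p stayed under 0.05 in all 6 of these fits.

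SPL6 (LOC4334685), a repressor of the endoplasmic reticulum stress sensor IRE1 in panicles, was at 7.29, 7.62 and 7.66 in WT and at 7.92, 7.95 and 7.92 in dsl1. The dsl1 arrays nearly coincided and lay above all WT arrays. The difference was 0.40 (SE 0.143, 1.32-fold, adjusted p = 0.374), with an unadjusted p under 0.05 in 2 of the 6 fits with 1 array left out. SPL1 (LOC4325162), of the same large-protein class as SPL6 and SPL9, differed by 0.30 (adjusted p = 0.521), with WT replicate 3 above the lowest dsl1 array.

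SPL6, SPL9 and SPL1 are not targets of miR156, whereas SPL4, SPL7, SPL16 and SPL18 are. This grouping was made after the values were seen and is a description only. The 3 non-targets differed by 0.30 to 0.48, and the 4 targets by -0.30 to 0.093. Among the targets, SPL16 (LOC4346133), the grain width gene GW8, differed by -0.30 (adjusted p = 0.524), SPL7 (LOC4336597) by -0.12 and SPL4 (LOC4328461) by -0.068. SPL18 (LOC4348247), which acts in grain size, differed by 0.093. The groups of all 4 targets overlapped.

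TCP genes had a median of -0.033 over 6 genes, 3 higher and 3 lower. It turned to 0.116 without WT replicate 2 and 0.014 without dsl1 replicate 1, and was -0.0951 to -0.0388 without any 1 of the others. PCF8 (LOC4352799), a CIN-class gene and miR319 target, was at 7.07, 7.42 and 6.72 in WT and at 6.52, 6.35 and 6.28 in dsl1. All dsl1 arrays lay below all WT arrays, with WT replicate 3 nearest to them. The means were 7.07 ± 0.350 and 6.38 ± 0.126 (SD, n = 3 each), a difference of -0.68 (SE 0.198, 1.61-fold, limma adjusted p = 0.317). With 1 array left out it was -0.858 to -0.509, and its unadjusted p stayed under 0.05 in all 6 of these fits. The other CIN-class genes were close to 0, at -0.077 for PCF5 (LOC4325252), 0.061 for PCF6 (LOC4334346) and -0.086 for PCF7 (LOC4325137). PCF1 (LOC4335133) and PCF3 (LOC4349919), class I genes tied to cell proliferation, differed by 0.041 and 0.011. Adjusted p of these 5 lay between 0.846 and 0.984.

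**Figure D4:**
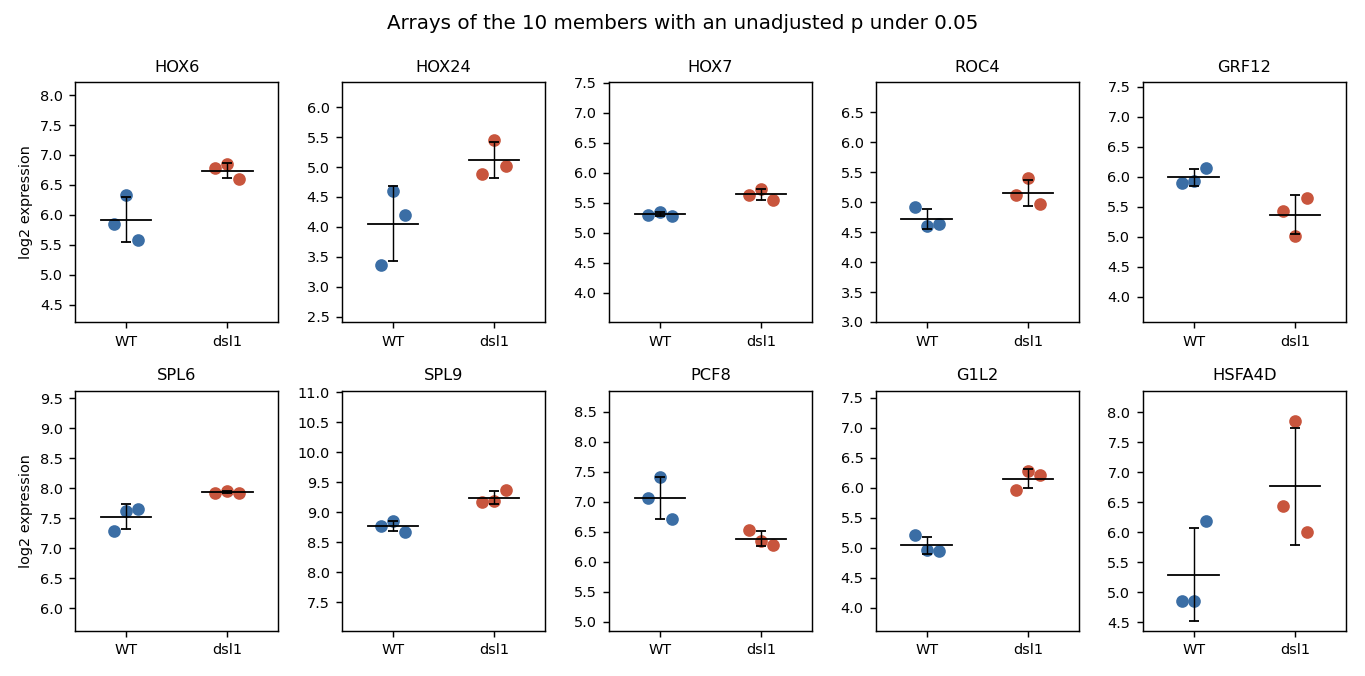
Each panel gives the log2 expression (y axis, 4 log2 units tall in every panel) of a member with an unadjusted p under 0.05 on 3 WT and 3 dsl1 arrays, with the mean and SD in black. WT and dsl1 points are apart in 9 panels, and in HSFA4D WT replicate 3 lies among the dsl1 points.

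HSFA4D (LOC4339409), the heat shock factor that matched by name and is known from the spotted-leaf mutant, had the largest fitted difference of the 49, 1.47 (SE 0.555, 2.77-fold, limma adjusted p = 0.391), and the widest interval, 0.16 to 2.79. It was at 4.85, 4.85 and 6.18 in WT and at 6.43, 7.87 and 6.004 in dsl1. WT replicate 3 stood above dsl1 replicate 3, so the groups overlapped. With 1 array left out the difference was 0.923 to 1.92, and its unadjusted p was under 0.05 in 3 of these 6 fits.

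The arrays were not alike in how they placed the members. WT replicate 2 was the highest WT array in 27 of 49 members (55.1%, against 36.6% of all genes), and dsl1 replicate 2 was the highest dsl1 array in 27 (55.1%, against 29.5%). WT replicate 1 and dsl1 replicate 1 were each the lowest of their group in 22 members (44.9%, against 32.3% and 31.9% of genes). The median SD between arrays was 0.187 in WT and 0.128 in dsl1 for members, beside 0.194 and 0.156 for all genes. Among YABBY and DL genes WT replicate 2 was the highest WT array in 5 of 6, and among TCP genes also in 5 of 6.

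**Figure D5:**
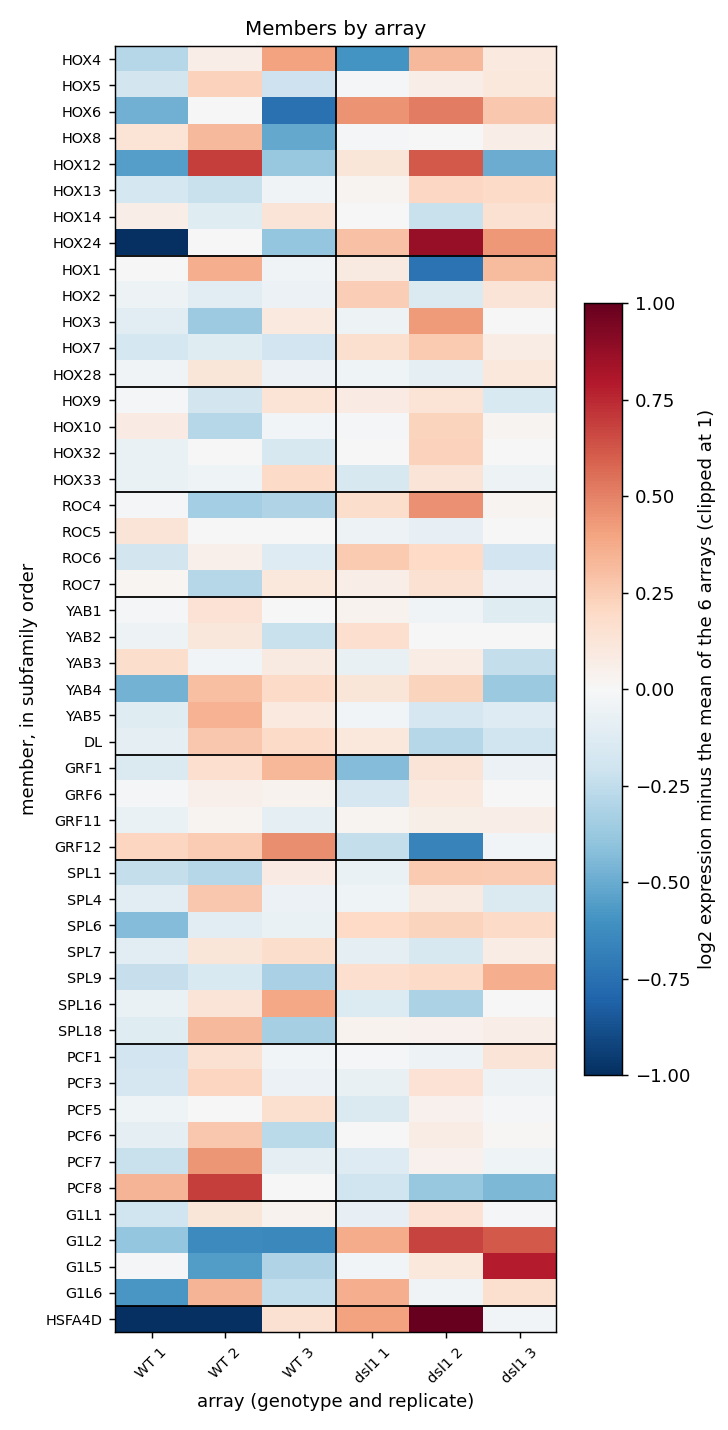
The 49 members in subfamily order (rows) are shown on the 6 arrays (columns), coloured by log2 expression minus the mean of the gene's 6 arrays, red above and blue below. G1L2, SPL9, SPL6 and HOX6 are paler or bluer in all WT arrays than in dsl1, GRF12 and PCF8 the reverse, and in most rows the difference between replicates is as large as that between genotypes.

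Other genes of leaf shape and polarity, from a list of 35 names of which 14 genes were measured, gave no call either. They were 10 higher and 4 lower with a median of 0.094, where 53.0% of all genes had a higher mean. None had an unadjusted p under 0.05 in limma, against 15.0% of all genes, and limma adjusted p ran from 0.469 to 0.987. Of all genes only 0.0396% were called after adjustment. AGO1A, an Argonaute protein that loads small RNAs, differed by 0.32 and SLL1, the KANADI-type gene of leaf rolling, by -0.11. AGO7, which works with ta-siRNAs that restrict abaxial factors, differed by 0.17, and ADL1, the calpain gene of adaxialised leaves, by 0.23. In AGO7 and ADL1 the groups did not overlap, and in AGO1A and SLL1 they did. In all 4 of the 14 genes had groups apart, which is 28.6% against 24.4% of genes. The name ARF2 was ambiguous, and each measured gene that carries it was counted.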

How the data were processed

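RNA from 3 WT and 3 dsl1 shoot apices was labelled with biotin and read on single-colour whole-transcript arrays. The values are the authors' deposited log2 expression for 54922 clusters. The submitters' processing notes name Affymetrix Expression Console 1.3; the sources used here do not say how it corrected, normalised or summarised the signal. The number of arrays limits the precision, and no 2 arrays shared more than 34 values. Gene names came from the platform's table and the rice gene reference (ASM3414082v1, used for names and neighbours only). dsl1 was compared with WT in limma 3.58.1 (R 4.3.3; lmFit, eBayes, 2-sided, no block), fitted on all clusters and adjusted over them by Benjamini-Hochberg, with a threshold of 0.05; the fit was tested on simulated data. Intervals are 95% and unadjusted. Every member is named, with all array values for those at an unadjusted p under 0.05 and, in a subfamily with none, the member with the largest difference. HD-Zip III, YABBY and DL genes are given with both means. G1L5, the SPL target grouping and the 4 genes of the other leaf list were picked after values were seen. Members and lists were chosen with earlier results of these data known. Alternatives were other normalisations, filters, variance priors, array weights, a replicate block and leaving out each array.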

Additional observations from a re-analysis of the deposited data

How the results depend on the processing

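Over 16 alternatives, 746 member values kept their direction and their side of the threshold, 33 changed sign and 1 gained the threshold. That 1 was G1L2, so that 1 member was called among clusters with 1 gene and 0 in every other alternative, with 1 array left out included. Using the mean over a gene's clusters changed no member value, since each member has 1 cluster. The filters, the variance priors and the replicate block could not change a member's difference either, only its p-value. Direction could change only with the other normalisations, array weights or 1 array left out, so many of the 746 were fixed in direction beforehand. The members at an unadjusted p under 0.05 numbered 5 higher with the replicate block, and 4 to 7 higher and 2 lower with 1 array left out. They numbered 10 higher with each array centred on its median, and 9 higher when only clusters with 1 gene were fitted. Whether the replicate numbers pair the samples is not stated. Over all clusters, deviations from the group mean correlated at -0.064, -0.125 and -0.052 between same-numbered arrays, and at -0.147 to 0.198 between the others. Among the members, WT replicate 2 was the highest WT array in 27 of 49 (55.1%, against 36.6% of all genes). In dsl1, replicate 2 was the highest array in 27 (55.1%, against 29.5%). The counts were made apart in each genotype and were not all of the same members, so they cannot show whether the numbers pair samples. The SPL median was 0.195 without the dimmest 33.3% of clusters, which leaves out SPL16 (and HOX8, HOX3 and PCF3 elsewhere), and -0.0519 to 0.228 with 1 array left out, while the median over all members was 0.0287 to 0.126. Values near 0 changed sign: HOX28 to 0.00369 and YAB4 to 0.00177 with array weights, and HOX9 to -0.00334 on quantile normalisation. With 1 array left out, ranges that cross 0 were -0.311 to 0.151 for HOX4, -0.21 to 0.208 for HOX8, -0.113 to 0.541 for HOX12, -0.133 to 0.0521 for HOX14 and -0.437 to 0.0891 for HOX1. They were -0.0776 to 0.0377 for HOX28, -0.0369 to 0.131 for HOX9, -0.129 to 0.0287 for HOX33, -0.0112 to 0.186 for ROC7 and -0.255 to 0.167 for YAB4. The others were -0.108 to 0.027 for GRF6, -0.14 to 0.0483 for SPL4, -0.0519 to 0.276 for SPL18, -0.0425 to 0.128 for PCF1, -0.0724 to 0.122 for PCF3, -0.0602 to 0.21 for PCF6, -0.219 to 0.111 for PCF7 and -0.0659 to 0.0941 for G1L1. The TCP median also crossed 0, from -0.0951 to 0.116. The cause of these changes was not tested.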

Other observations

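Genes next to the members in the reference annotation were looked at after the members' values were seen, as a description with no test of its own. Of 42 measured neighbours that are no members, 4 were higher and 1 lower in dsl1 at an unadjusted p under 0.05 in limma, 11.9% against 15.0% of all genes, and none passed after adjustment. Next to HOX6, LOC4347648 differed by 0.57 (limma adjusted p = 0.302), while LOC4347646 on its other side differed by 0.041. Next to G1L2, LOC4341812 differed by 0.47 (limma adjusted p = 0.352). The 1 lower neighbour was LOC4344612, beside ROC7, at -0.35 (limma adjusted p = 0.396). Next to GRF1 and HOX9, whose own differences were -0.24 and 0.044, LOC4330904 and LOC4348918 each differed by 0.65. No measured neighbour of PCF8, HOX7, ROC4 or HSFA4D had an unadjusted p under 0.05 in limma, and those of ROC4 and HSFA4D differed by 0.027 and -0.047.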
